A study of Homo sapiens with 9 samples.

Results

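Detoxification genes driven by the transcription factor NRF2, 10 in number, were followed in A549 cells, by looking up the rows of the deposited gene tables whose Ensembl identifiers carry the symbols AKR1B10, AKR1C1, AKR1C2, AKR1C3, GPX2, NQO1, TXNRD1, GCLM, ALDH3A1 and SRXN1. All 10 were found among 62257 rows, and all 10 passed the filter on low counts. The rule that picks the rows uses the symbols alone, but the list of symbols was drawn up with earlier results of these data known. A549 is an established human lung adenocarcinoma line that carries a mutation in KEAP1, and as a single line it stands for itself only. The study exposed these cells for 96 h to phosphate-buffered saline or to apoptotic extracellular vesicles, the membrane-bound particles that dying cells release, and sequenced their RNA. The control group received saline, the ddp group received vesicles from apoptosis set off by cisplatin, and the sts group received vesicles from apoptosis set off by staurosporine, a broad protein kinase inhibitor. Each group had 3 libraries. The labels name neither the cells that gave the vesicles nor separate cultures for the libraries of a group, so p-values reflect only how much these libraries varied, and that variation may be technical.

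NRF2, encoded by NFE2L2, is normally held low by KEAP1, which hands it to a CUL3 ubiquitin ligase for degradation. When electrophiles or oxidants modify KEAP1, or when KEAP1 is mutated, NRF2 builds up, pairs with a small MAF protein and binds the antioxidant response element near genes for reduction, conjugation and export of reactive compounds. Lung tumours with KEAP1 mutations are known for high levels of aldo-keto reductases and NQO1, and high NRF2 activity is associated with resistance to drugs and radiation.

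Total counts ran from 13799950 to 16526399 per library, of which 11.4% to 13.1% came from mitochondrial genes. CDKN2A, which is deleted in A549, had a count of 0 in all 9 libraries. The epithelial markers EPCAM, KRT7, KRT8, KRT18, KRT19 and CDH1 were all detected. Their summed level was 11250 to 12300 CPM (counts scaled to library size) in control, 6940 to 7535 in ddp and 7309 to 8769 in sts. KRT8 made up 54.9%, 49.8% and 60.8% of it in control, ddp and sts. In ddp EPCAM and KRT7 were not called and the other 4 were called lower. In sts KRT19 was called higher and the other 5 lower. Of all genes tested, 9.02% were called lower in ddp, and 15.9% higher and 18% lower in sts. The 8 markers of alveolar type 2 cells summed to 25.7 to 29.1 CPM in control, 19.1 to 23.96 in ddp and 24.8 to 32.9 in sts, and the lipid transporter gene ABCA3 made up 91.0% to 93.3% of the sum in each group. ABCA3 and NAPSA, the only ones of the 8 that passed the filter, were both called higher in sts than in ddp. So were 8 of the 10 enzymes and 20.4% of all genes tested. The surfactant genes SFTPA2, SFTPB, SFTPC and SFTPD were near 0, and SFTPA1 had no count. Of 12 leukocyte markers MS4A1 had no count, the pan-leukocyte gene PTPRC had 3 counts over all 9 libraries, and the summed level was 11.4 to 17.8 CPM in control, 14.6 to 16.1 in ddp and 21.3 to 27.0 in sts, led by CD14. The 6 endothelial markers summed to 1.79 to 2.07, 1.64 to 1.82 and 2.84 to 4.54 CPM in control, ddp and sts. PECAM1 made up 8.28%, 24.7% and 63.8% of this sum in the same order. Of the 2 endothelial markers that passed the filter, PECAM1 was called higher in sts than in control and CDH5 was not called. PECAM1 had means of 0.161, 0.432 and 2.53 CPM in control, ddp and sts. It owed its pass of the filter to the sts libraries, so its call adds nothing to these levels. The 8 fibroblast markers summed to 3.22 to 4.36 CPM over all libraries. The part of these shifts in the results below was not tested. In bulk RNA, fewer cells that express a gene and less of its RNA per cell cannot be told apart.

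In control cells the enzymes ranged from among the most abundant nuclear transcripts to a moderate level. Levels of different genes are compared here in FPKM, deposited values that scale fragments by gene length and library size. AKR1B10, an aldo-keto reductase that reduces retinal and lipid-derived aldehydes, had a mean of 3578 FPKM and ranked 2 among 12311 nuclear genes with at least 1 FPKM. NQO1, which reduces quinones by transfer of a pair of electrons, followed with 1113 FPKM (rank 14), and GPX2, the gastrointestinal-type glutathione peroxidase, had 1003 FPKM (rank 18). Libraries of NQO1 and GPX2 overlapped in control, as did those of AKR1C2 (867.3 FPKM) and AKR1C3 (867.2 FPKM), so neither pair had an order beyond its spread. TXNRD1, the cytosolic thioredoxin reductase, had 382 FPKM, ALDH3A1 278 FPKM, AKR1C1 211 FPKM and GCLM 51.3 FPKM. SRXN1, encoding sulfiredoxin, was lowest at 13.4 FPKM and ranked 2869. FPKM divides by the deposited gene length, which sums merged exons and differs from 8765 bases for AKR1C1 to 6086 for AKR1C2 and 1340 for GPX2, so this order depends on those lengths.

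**Figure D1:**
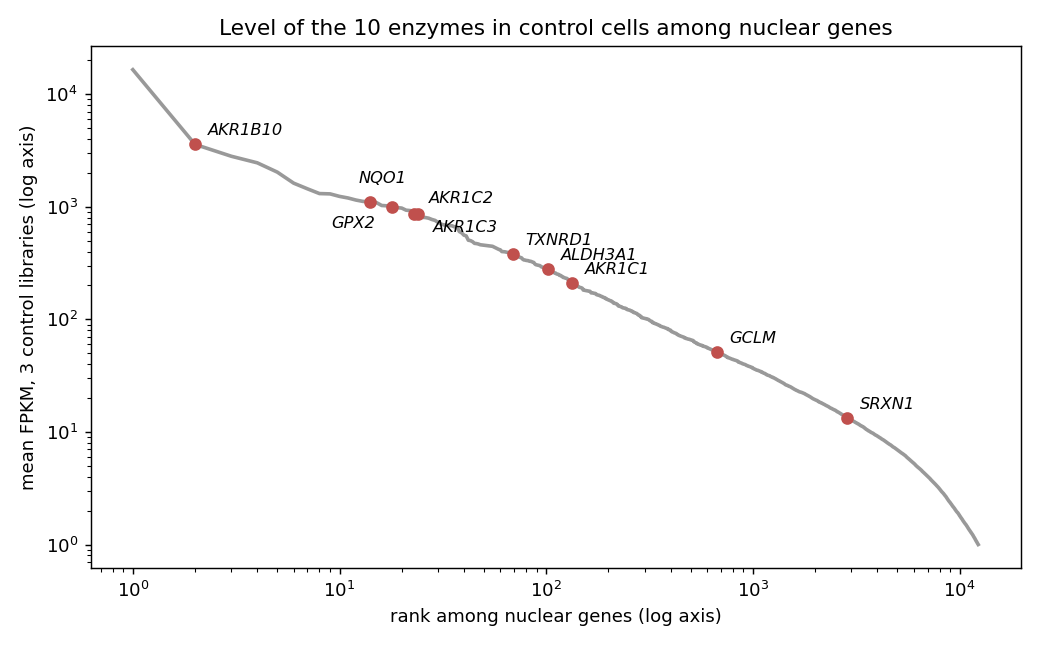
Mean FPKM of the 3 control libraries (vertical, log axis) against rank among nuclear genes with at least 1 FPKM (horizontal, log axis); the grey line is all 12311 genes and red points are the 10 enzymes. AKR1B10 sits at rank 2, and 8 of the 10 enzymes lie within the first 134 ranks, with GCLM at 667 and SRXN1 at 2869.

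The order moved between the groups. GPX2 went from rank 18 in control to rank 59 in ddp and rank 23 in sts, with means of 1003, 465 and 914 FPKM. ALDH3A1 went from rank 102 to rank 86 and rank 35, with 278, 344 and 650 FPKM. In ddp the libraries of ALDH3A1 and TXNRD1 overlapped, and in sts those of GPX2 and AKR1C3 and those of AKR1C2 and ALDH3A1 did. Together the 10 genes held 2.51% to 2.68% of all counts in control, 1.91% to 2.02% in ddp and 2.57% to 2.62% in sts. The ddp libraries were thus below all others in this share, while sts and control libraries overlapped.

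The promoters of the members were read for the core of the antioxidant response element, since 8 of the 10 genes fell together with ddp vesicles (below). The RefSeq promoter table (GRCh38.p14; 250 bases before to 50 bases after a start site) held 10 entries for 8 members, with 2 start sites each for AKR1C3 and TXNRD1. AKR1B10 and ALDH3A1 had no entry. The letters TGACNNNGC were searched on both strands and occur in 13.3% of 35116 promoters of this length, and the shorter core TGANNNNGC, which contains every match of the first, in 41.8%. The first occurred in GCLM, GPX2 and TXNRD1, 3 of the 8 members with an entry, and these stretches are printed in the direction of transcription with the matched bases in capitals. The strand printed is that of the gene. Where the capitals do not begin with TGAC, the match reads on the opposite strand. A match describes letters in this window and is not evidence of binding.
GCLM, chr1:93909456-93909464, minus strand, bases −34 to −26: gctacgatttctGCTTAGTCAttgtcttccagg
GPX2, chr14:64942859-64942867, minus strand, bases −122 to −114: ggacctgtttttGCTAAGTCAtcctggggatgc
TXNRD1, first start site, chr12:104215680-104215688, plus strand, bases −99 to −91: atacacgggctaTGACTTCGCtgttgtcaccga
TXNRD1, first start site, chr12:104215771-104215779, plus strand, bases −8 to 1: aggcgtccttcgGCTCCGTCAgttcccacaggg
TXNRD1, second start site, chr12:104286930-104286938, plus strand, bases −102 to −94: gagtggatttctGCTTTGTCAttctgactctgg
The windows of AKR1C1, AKR1C2, AKR1C3, NQO1 and SRXN1 held no TGACNNNGC. Of these, AKR1C1, AKR1C2 and NQO1 held the shorter core, which occurs in 41.8% of promoters. In NQO1 it lies at bases −119 to −111. AKR1C3 and SRXN1 held neither. AKR1C1 and AKR1C2, whose windows were 93.5% identical over 308 aligned columns, shared the shorter core in the same stretch of bases. In both it reads on the strand opposite to the gene. It lies at chr10:4963374-4963382 for AKR1C1, a plus-strand gene, and at chr10:5003894-5003902 for AKR1C2, a minus-strand gene.
AKR1C1 and AKR1C2: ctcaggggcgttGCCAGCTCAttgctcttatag

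Vesicles from cisplatin-induced apoptosis went with lower levels of most of these enzymes. With edgeR's quasi-likelihood test and Benjamini-Hochberg adjustment over 16480 genes, 8 of the 10 fell (adjusted p under 0.05) and 0 rose, where 9.02% of all genes tested were called lower and 7.55% higher. The libraries of ddp and control did not overlap for the same 8 genes, against 32.6% of all genes. Their median log2 fold change, over all 10, was −0.30, beside −0.00 over all genes tested. ALDH3A1 and SRXN1 did not pass the test. At an unadjusted p under 0.05 edgeR gave 1 higher gene (ALDH3A1), and DESeq2 gave 0 higher and 8 lower. The falls were largest for GPX2, AKR1C1 and AKR1B10, and all 17 alternative analyses of these genes kept their calls. The count of 8 became 5 without control 1, control 3, ddp 1 or ddp 2, 5 in each of the 3 limma fits on FPKM and 3 with a required fold of at least 1.2. The calls of NQO1 and TXNRD1 were lost whenever a control or ddp library was left out.

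GPX2, which reduces hydrogen peroxide and organic hydroperoxides with glutathione and is a selenoprotein, fell most. Its level was 1291, 1304 and 1503 CPM in control 1 to 3, 541, 590.1 and 757 CPM in ddp 1 to 3, and 1177, 1337 and 1229 CPM in sts 1 to 3. Every ddp library was below every other library, while control and sts overlapped. Against control it fell 2.17-fold in ddp, from 1366 ± 119 to 630 ± 113 CPM (SD, n = 3). The log2 fold change was −1.12 with an SE of 0.101 (adjusted p = 7.93e-08). GPX2 had the widest spread of the 10 genes within the ddp group (coefficient of variation 18.0%). The GPX2 row (ENSG00000176153, chr14:64939152-64942746, minus strand, protein-coding, hg38) lies within CHURC1 on the opposite strand, whose mean count was 678 against 16049 for GPX2, and the library kit is not stated to keep strand. GPX1, the ubiquitous glutathione peroxidase, rose 0.31 on the log2 scale in ddp (adjusted p = 0.0288) and 0.48 in sts (3.71e-04). Of the 5 tested glutathione peroxidases, GPX1 was called higher and GPX2 lower in ddp and the other 3 did not pass. The lipid hydroperoxide reductase GPX4 was at 148, 137 and 167 CPM in control, ddp and sts, and differed only between the vesicle groups (log2 fold change 0.29, adjusted p = 0.0335).

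Selenoproteins need dedicated factors to insert selenocysteine, and GPX2 and TXNRD1 are both of this class. Without these members, 3 of 20 tested selenoproteins rose and 2 fell in ddp, with a median log2 fold change of −0.07. In sts 5 rose and 1 fell, with a median of 0.12. The shares over all genes were 7.55% higher and 9.02% lower in ddp, and 15.9% higher and 18% lower in sts. TXNRD2, the mitochondrial thioredoxin reductase, fell in both, by 0.47 and 0.83 on the log2 scale (adjusted p = 6.65e-04 and 2.72e-08). Of 5 tested insertion factors 1 (SECISBP2L) fell in ddp and 2 (SECISBP2 and SEPSECS) rose in sts.

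**Figure D2:**
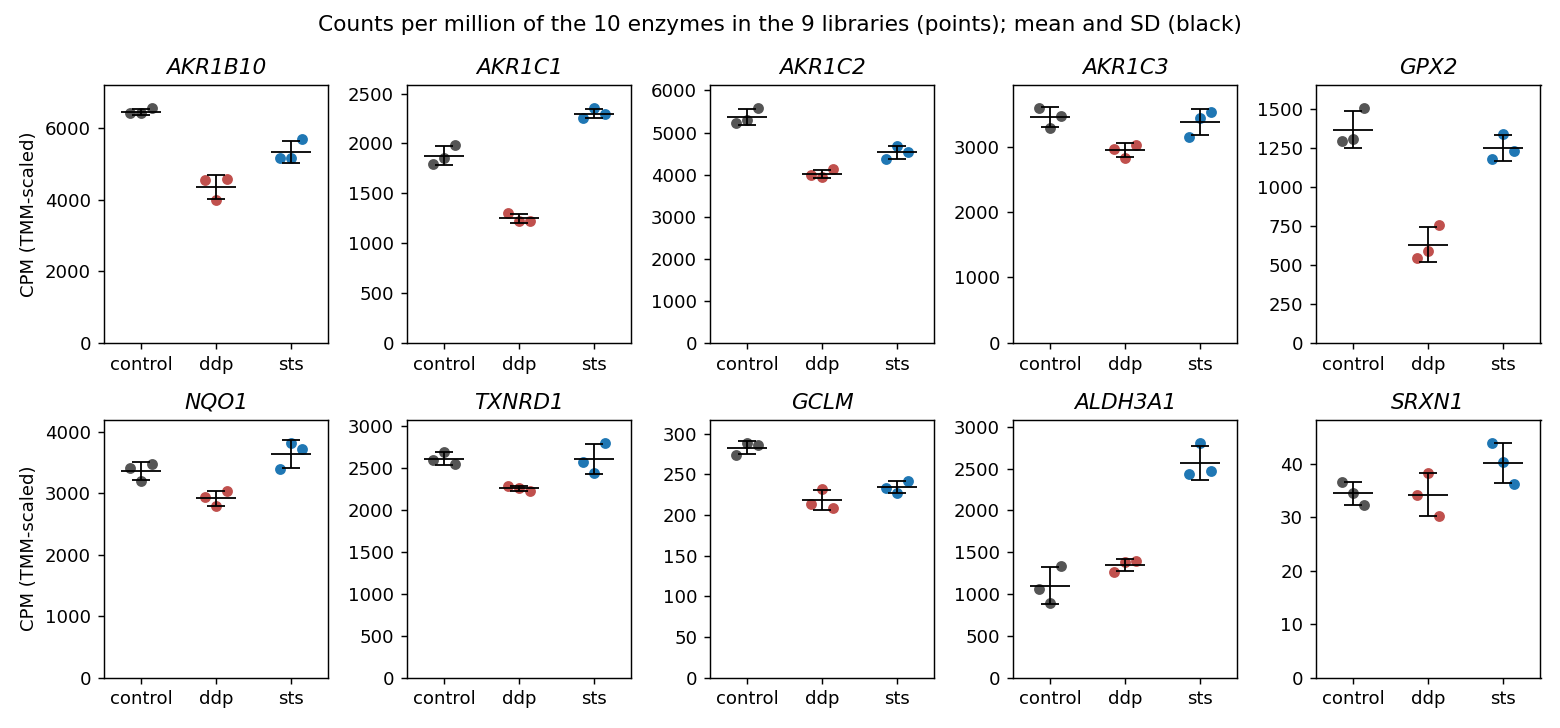
TMM-scaled CPM (vertical, from 0) of the 10 enzymes in each library of the 3 groups (points), with the group mean and SD in black. For GPX2, AKR1C1 and AKR1B10 the ddp libraries lie below all control and sts libraries, and for ALDH3A1 the 3 sts libraries, 2436 to 2804 CPM, lie above all others.

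The aldo-keto reductases reduce aldehydes and ketones with NADPH, and the AKR1C members also act on steroids and prostaglandins. AKR1B10 (ENSG00000198074, chr7:134527567-134541412, plus strand) was at 6401, 6404 and 6542 CPM in control, 4537, 3973 and 4572 CPM in ddp, and 5152, 5149 and 5687 CPM in sts. The 3 groups did not overlap, with control highest and ddp lowest. It fell 1.48-fold in ddp (log2 fold change −0.56, SE 0.0724, adjusted p = 1.79e-07) and 1.21-fold in sts (−0.28, SE 0.0722, adjusted p = 0.00262), and was higher in sts than in ddp (0.29, adjusted p = 0.0013).

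The row of AKR1C1 (ENSG00000187134, chr10:4963253-4983283, plus strand), a 20-alpha-hydroxysteroid dehydrogenase that inactivates progesterone, moved in opposite directions with the 2 kinds of vesicle. Its rise in sts may depend on how reads were divided between it and its near copy AKR1C2 (below). AKR1C1 was at 1796, 1856 and 1980 CPM in control, 1304, 1223 and 1219 CPM in ddp, and 2253, 2352 and 2297 CPM in sts. No libraries of different groups overlapped, with ddp lowest and sts highest. It fell by 33.5% in ddp (log2 fold change −0.59, SE 0.0697, adjusted p = 3.52e-08) and rose 1.23-fold in sts (0.29, SE 0.0695, adjusted p = 9.11e-04). The difference between the vesicle groups, tested directly, was 1.84-fold (0.88, SE 0.07, adjusted p = 4.89e-13).

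AKR1C2 (ENSG00000151632, chr10:4987775-5018031, minus strand), a 3-alpha-hydroxysteroid dehydrogenase, is the neighbour and near copy of AKR1C1. It was at 5228, 5300 and 5574 CPM in control, 3982, 3941 and 4130 CPM in ddp, and 4369, 4683 and 4535 CPM in sts. Control was above both vesicle groups and ddp was lowest, with no overlap. It fell in ddp (log2 fold change −0.42, SE 0.0688, adjusted p = 1.85e-05) and in sts (−0.24, SE 0.0687, adjusted p = 0.00481). The difference between sts and ddp was small (0.17, adjusted p = 0.0413) and its call was lost in 9 of 17 alternatives. Among them were leaving out ddp 1, ddp 2, sts 2 or sts 3, with adjusted p of 0.0504 to 0.127. With a required fold of at least 1.2 the adjusted p was 0.917.

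AKR1C3 (ENSG00000196139, chr10:5035354-5107686, plus strand), which makes testosterone and prostaglandin F, changed less. It was at 3583, 3289 and 3474 CPM in control, 2968, 2822 and 3031 CPM in ddp, and 3145, 3434 and 3535 CPM in sts. The ddp libraries were below all others, and control and sts overlapped. Its fall in ddp was −0.23 on the log2 scale (SE 0.0708, adjusted p = 0.02), a call lost in 8 of 17 alternatives, including without control 1, control 3, ddp 1 or ddp 2. In sts its log2 fold change was −0.03, with a 95% interval of −0.18 to 0.11 (adjusted p = 0.769), and its sign changed with upper-quartile scaling. It was higher in sts than in ddp by 0.20 (adjusted p = 0.0236), a call lost without ddp 2 (adjusted p = 0.113) or sts 3 (adjusted p = 0.0702).

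How reads are divided between AKR1C1 and AKR1C2 depends on few bases. Their coding sequences (GENCODE v29) are 98.0% identical, with 19 of 972 bases different, and 19.1% of the 100-base windows of AKR1C1 are identical in AKR1C2. The longest identical run is 189 bases, at the end of the coding sequence. Coding bases 103 to 162 hold 10 of the 19 differences and are shown because reads over them can be told apart; capitals mark bases that differ from AKR1C2.
AKR1C1: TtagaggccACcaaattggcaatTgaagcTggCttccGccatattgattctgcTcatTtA
AKR1C2: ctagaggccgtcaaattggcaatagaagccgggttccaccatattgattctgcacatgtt
AKR1C3: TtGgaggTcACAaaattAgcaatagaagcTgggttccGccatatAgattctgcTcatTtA
The ratio of AKR1C1 to AKR1C2 counts was 0.344 to 0.355 in control, 0.295 to 0.328 in ddp and 0.502 to 0.516 in sts, so the groups did not overlap in this ratio. The sources used here do not say how reads that fit both genes were handled, so the split between them is uncertain. With AKR1C1, AKR1C2 and AKR1C3 summed to 1 row, the level was 10606, 10445 and 11028 CPM in control, 8254, 7986 and 8381 CPM in ddp, and 9766, 10469 and 10368 CPM in sts. The sum was lower in ddp than in every other library. It fell in ddp (log2 fold change −0.38, adjusted p = 7.93e-05) and was higher in sts than in ddp (0.31, adjusted p = 3.27e-04), while sts against control gave −0.07 (adjusted p = 0.489).

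Other aldo-keto reductases did not all follow. AKR1B1, aldose reductase, whose coding sequence is 76.8% identical to AKR1B10, was at 1692 ± 126 CPM in control, 2760 ± 214 in ddp and 3476 ± 293 in sts (SD, n = 3). It rose in ddp (log2 fold change 0.71, adjusted p = 5.68e-09) and in sts (1.04, adjusted p = 1.30e-13), while AKR1B10 fell in both. AKR1B15, 93.5% identical to AKR1B10, was at 75.6 ± 19.6, 60.2 ± 10.9 and 100.0 ± 10.0 CPM and was called only between the vesicle groups (0.73, adjusted p = 0.0386); reads could be exchanged between it and AKR1B10. AKR1C4, the liver-type member, was low at 6.49, 3.41 and 9.54 CPM in control, ddp and sts, and was lower in ddp (−0.93, adjusted p = 0.00222) and higher in sts (0.56, adjusted p = 0.0305). AKR1A1, the general aldehyde reductase, fell in ddp by 0.42 on the log2 scale (adjusted p = 8.91e-05). Among the 9 tested family genes that are not members, 1 rose and 2 fell in ddp, and 2 rose and 1 fell in sts. The shares over all genes were 7.55% higher and 9.02% lower in ddp, and 15.9% higher and 18% lower in sts.

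**Figure D3:**
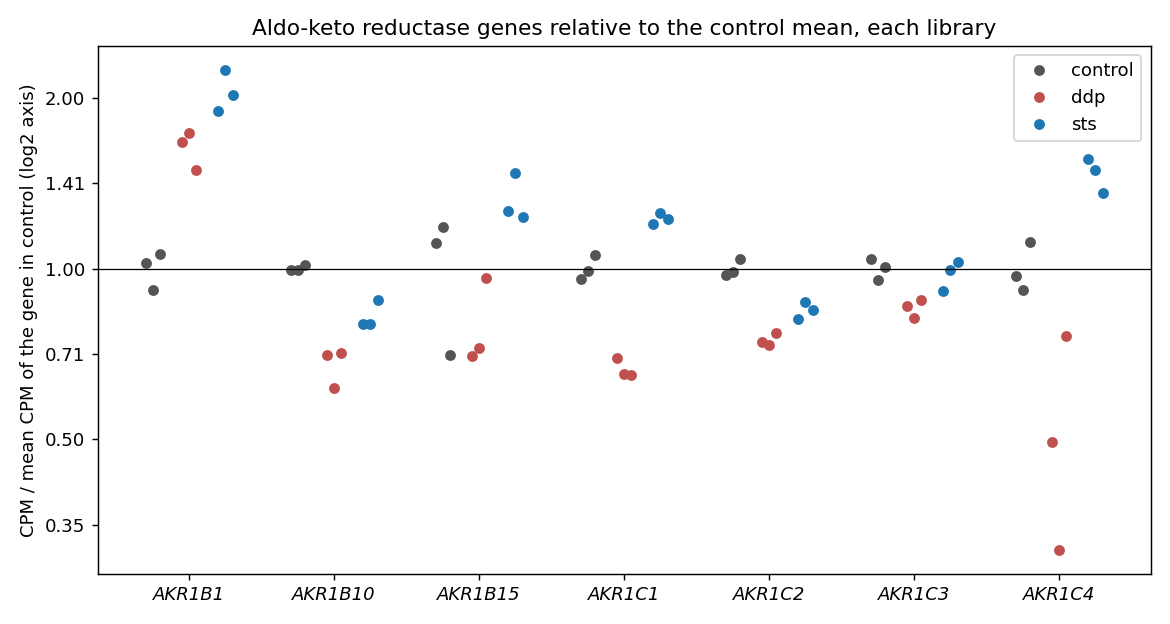
CPM of each library divided by the control mean of the same gene (vertical, log2 axis) for 7 aldo-keto reductase genes. AKR1B1 lies above its control mean in all ddp and sts libraries and AKR1B10 and AKR1C2 below theirs, whereas AKR1C1 and AKR1C4 lie below in ddp and above in sts.

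NQO1 (ENSG00000181019, chr16:69706996-69726668, minus strand) was at 3409, 3203 and 3475 CPM in control, 2939, 2792 and 3031 CPM in ddp, and 3390, 3816 and 3725 CPM in sts. The ddp libraries were below all others, and sts overlapped control. Its fall in ddp was −0.20 on the log2 scale (SE 0.071, adjusted p = 0.0441), and this call was lost in 13 of 17 alternatives, including each of the 6 fits that left out a control or ddp library. In sts the log2 fold change was 0.12, with a 95% interval of −0.03 to 0.26 (adjusted p = 0.218). It was higher in sts than in ddp (0.32, adjusted p = 3.69e-04). NQO2, its paralog, did not pass against control in either group and was lower in sts than in ddp (−0.26, adjusted p = 0.0166).

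The thiol enzymes differed little between the groups. TXNRD1 (ENSG00000198431, chr12:104215779-104350307, plus strand), which keeps thioredoxin reduced, was at 2596, 2687 and 2542 CPM in control, 2287, 2254 and 2227 CPM in ddp, and 2571, 2442 and 2792 CPM in sts. All ddp libraries were below all others, and control and sts overlapped. Its fall in ddp was −0.21 on the log2 scale (SE 0.07, adjusted p = 0.0346), lost in 12 of 17 alternatives, including each fit that left out a control or ddp library. In sts the log2 fold change was −0.00, with a 95% interval of −0.15 to 0.14 (adjusted p = 0.978), and its sign changed with both other scalings. It was higher in sts than in ddp (0.21, adjusted p = 0.0171), a call lost without sts 3 (adjusted p = 0.0774). SRXN1 (ENSG00000271303, chr20:646615-653200, minus strand), which repairs over-oxidised peroxiredoxins, was at 36.7, 34.5 and 32.3 CPM in control, 34.1, 38.4 and 30.2 CPM in ddp, and 43.9, 40.3 and 36.3 CPM in sts. Its groups overlapped in every comparison. SRXN1 did not pass in ddp (log2 fold change −0.01, 95% interval −0.21 to 0.19, adjusted p = 0.962) or in sts (0.22, 95% interval 0.02 to 0.42, adjusted p = 0.0882), but passed in sts without sts 3 (adjusted p = 0.0342) and with upper-quartile scaling (adjusted p = 0.0352).

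Beyond these members, 1 of 12 tested genes of the thioredoxin and peroxiredoxin system rose in ddp (PRDX6, a peroxiredoxin, by 0.21 on the log2 scale) and 2 fell. Of all genes 7.55% were called higher and 9.02% lower there. GLRX, glutaredoxin, fell by 0.46 (adjusted p = 3.25e-05) and TXNRD2 by the value above. TXN, the substrate of TXNRD1, was at 949.6, 1033 and 1014 CPM in control, ddp and sts and passed in no comparison.

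GCLM, the modifier subunit of the enzyme that makes the first step of glutathione synthesis, fell with both kinds of vesicle. It (ENSG00000023909, chr1:93885199-93909456, minus strand) was at 273, 289 and 286 CPM in control, 214, 232 and 209 CPM in ddp, and 233, 228 and 242 CPM in sts. Every control library was above every vesicle library, and ddp and sts overlapped. It fell in ddp (log2 fold change −0.37, SE 0.0709, adjusted p = 1.62e-04) and in sts (−0.27, SE 0.0709, adjusted p = 0.0025). Between the vesicle groups the difference was 0.10, with a 95% interval of −0.04 to 0.24 (adjusted p = 0.274).

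GCLC, the catalytic subunit of the same enzyme, was at 268, 290.0 and 291 CPM in control, 262, 267 and 283 CPM in ddp, and 385, 360.0 and 383 CPM in sts. Its sts libraries lay above all others, so that in sts it rose (log2 fold change 0.41, adjusted p = 1.46e-05) while GCLM fell. SLC7A11, the cystine importer, also rose in sts (0.35, adjusted p = 2.28e-04), and neither GCLC nor SLC7A11 passed in ddp. Over 9 tested genes of glutathione synthesis and recycling other than GCLM, 1 rose and 0 fell in ddp (edgeR; 1 fell at an unadjusted p under 0.05 and 0 with DESeq2), and 2 rose and 3 fell in sts. Of all genes 7.55% were called higher and 9.02% lower in ddp, and 15.9% higher and 18% lower in sts. CHAC2, which breaks glutathione down, was at 22.8, 28.8 and 14.1 CPM in control, ddp and sts. It was higher in ddp (0.33, adjusted p = 0.0347) and lower in sts (−0.69, adjusted p = 1.43e-05).

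ALDH3A1 (ENSG00000108602, chr17:19737984-19748943, minus strand) oxidises medium-chain and aromatic aldehydes and is a textbook target of the aryl hydrocarbon receptor as well. NQO1 is the other of the 10 on the receptor list read below. It did not pass in sts (0.12, adjusted p = 0.218) and was called lower in ddp (−0.20, adjusted p = 0.0441). ALDH3A1 had the largest change of the 10 in sts. It was at 1059, 898 and 1338 CPM in control, 1263, 1377 and 1400.0 CPM in ddp, and 2436, 2804 and 2469 CPM in sts. All sts libraries were above all others, while control 3 lay within the ddp range. It rose 2.34-fold in sts, from 1098 ± 223 to 2570 ± 203 CPM (SD, n = 3). This is a log2 fold change of 1.23 with an SE of 0.115 (adjusted p = 8.62e-07). In ddp the log2 fold change was 0.29, with a 95% interval of 0.05 to 0.54 (adjusted p = 0.101), and without control 3 it was 0.46 (adjusted p = 2.24e-04). Sts exceeded ddp 1.91-fold (0.93, adjusted p = 1.07e-05). ALDH3A1 held 3.55% to 5.001% of the counts of the 10 genes in control, 6.29% to 7.15% in ddp and 9.30% to 10.7% in sts.

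Of 6 tested genes of the aryl hydrocarbon receptor list that are not members, 3 rose and 0 fell in sts, with a median log2 fold change of 0.31. The 0 also held with edgeR at an unadjusted p under 0.05 and with DESeq2. In ddp 1 rose and 1 fell. For this list and the aldehyde dehydrogenases below, the shares over all genes were 15.9% higher and 18% lower in sts. They were 7.55% and 9.02% in ddp. TIPARP, a receptor-induced ADP-ribosyltransferase, was at 36.0 ± 1.41 CPM in control, 46.8 ± 1.53 in ddp and 59.8 ± 4.60 in sts, and rose in both (0.38 and 0.73 on the log2 scale, adjusted p = 0.00178 and 1.39e-08). CYP1B1, a cytochrome P450 of the receptor's battery, fell in ddp (−0.49, adjusted p = 5.59e-04) and rose in sts (0.35, adjusted p = 0.00622). CYP1A1, named after its values were seen, had counts of 0, 1 and 1 in control, 4, 7 and 1 in ddp, and 44, 58 and 58 in sts. It is 1 of the 3 called higher in sts. CYP1A1 passed the filter on low counts through its sts libraries alone, so its call adds nothing to these counts. In the aldehyde dehydrogenase family without ALDH3A1, 6 of 14 tested genes fell and 0 rose in ddp (edgeR; 1 rose at an unadjusted p under 0.05 and 0 with DESeq2), and 3 rose and 3 fell in sts. ALDH2, the mitochondrial acetaldehyde dehydrogenase, rose in sts (0.71, adjusted p = 7.93e-08) and ALDH1B1, its mitochondrial relative, fell (−1.15, adjusted p = 6.13e-13).

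With vesicles from staurosporine-induced apoptosis the 10 enzymes went in both directions. AKR1C1 and ALDH3A1 rose, AKR1B10, AKR1C2 and GCLM fell, and the other 5 did not pass. So 2 were called higher and 3 lower, where 15.9% of all genes were called higher and 18% lower. The split of reads between AKR1C1 and AKR1C2 is uncertain, and their sum with AKR1C3 did not pass (−0.07, adjusted p = 0.489). The libraries did not overlap for 5 of the 10, against 43.9% of all genes, and the median log2 fold change was −0.02, beside 0.00 over all genes. The counts of the 10 are close to what these shares would give. Both vesicle groups are compared with the same 3 control libraries, so their fold changes against control share that error.

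Compared directly, 8 of the 10 were higher in sts than in ddp and 0 lower, where 20.4% of all genes were called higher and 20.7% lower. The same 8 genes had no overlap between the 2 groups, against 48.3% of all genes. The median log2 fold change was 0.26, beside 0.02 over all genes, and the 2 genes that did not pass were GCLM and SRXN1. SRXN1 was near the threshold (log2 fold change 0.23, 95% interval 0.03 to 0.43, adjusted p = 0.0613) and passed without ddp 2 (adjusted p = 0.0206), without sts 3 (adjusted p = 0.0243) and with upper-quartile scaling (adjusted p = 0.0243). None was lower by edgeR at an unadjusted p under 0.05 or by DESeq2 (0 in both). The differences of GPX2 (1.98-fold; log2 fold change 0.99, adjusted p = 1.08e-07), ALDH3A1 and AKR1C1 were the largest, and they held in all 17 alternatives. A required fold of at least 1.2 left these 3, as it left GPX2, AKR1C1 and AKR1B10 in ddp against control and ALDH3A1 in sts against control.

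**Figure D4:**
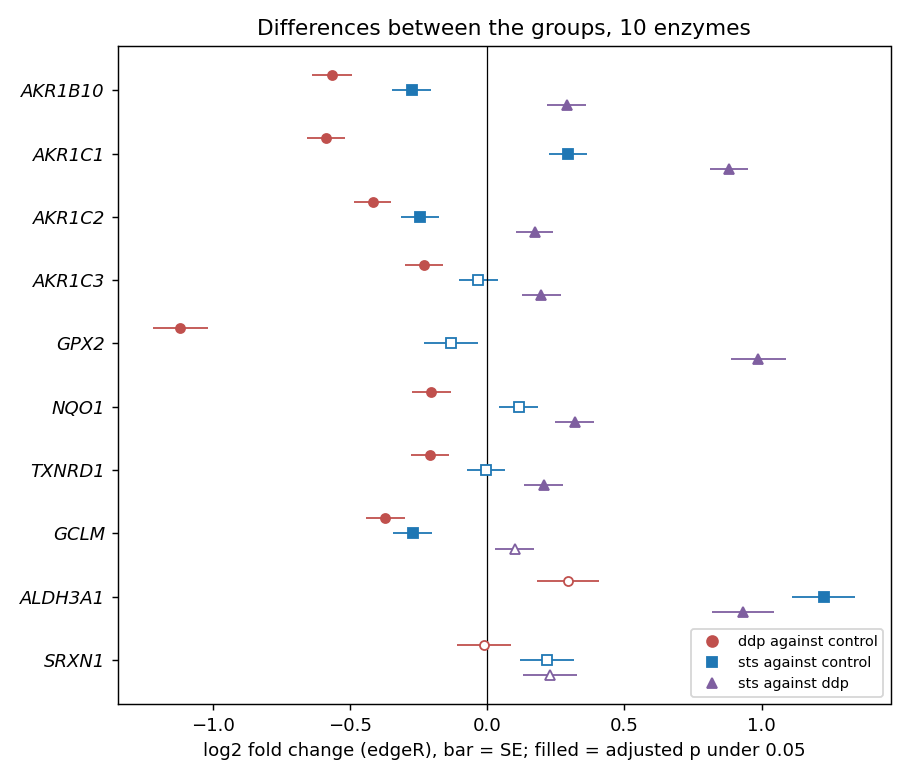
log2 fold change with SE (horizontal) of the 10 enzymes in the 3 comparisons; filled symbols passed an adjusted p under 0.05 in edgeR's quasi-likelihood test. For ddp against control 8 filled circles lie left of 0, for sts against ddp 8 filled triangles lie right of 0, and squares for sts against control lie on both sides.

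Of 15 listed regulators of NRF2, all tested, 1 rose, 2 fell and 12 did not pass in ddp, where 7.55% of all genes were called higher and 9.02% lower. In sts 5 rose, 4 fell and 6 did not pass, where 15.9% of all genes were called higher and 18% lower. NFE2L2, the NRF2 gene, was at 120.0, 121 and 119 CPM in control, 91.4, 84.6 and 88.6 CPM in ddp, and 130, 118 and 133 CPM in sts. The ddp libraries were below all others, and it fell in ddp (log2 fold change −0.44, adjusted p = 3.45e-05) but did not pass in sts (0.08, adjusted p = 0.424). KEAP1 had means of 49.9, 45.3 and 55.8 CPM in control, ddp and sts and passed only between the vesicle groups (0.30, adjusted p = 0.00935). BACH1, a repressor that competes with NRF2 for its sites, was at 43.1 ± 2.86 CPM in control, 35.9 ± 1.99 in ddp and 82.2 ± 10.0 in sts, higher in sts by 0.93 on the log2 scale (adjusted p = 1.36e-10) and lower in ddp by a small margin (−0.26, adjusted p = 0.0476). NFE2L3, an NRF2 relative, rose from 9.45 to 24.9 CPM in ddp (1.40, adjusted p = 3.27e-10). It was also called higher in sts than in control, and lower in sts than in ddp. None of the small MAF genes MAFF, MAFG and MAFK passed in ddp. In sts MAFF (0.60, adjusted p = 0.00703) and MAFG were called higher than in control, and MAFK fell (−0.69, adjusted p = 5.80e-08).

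A list of 32 other NRF2 target genes, none of them among the 10 and all tested, was read beside them. In ddp 1 rose and 10 fell, where 7.55% of all genes were called higher and 9.02% lower. Their median log2 fold change was −0.16. The one that rose, the carbonyl reductase gene CBR3, was near the threshold (adjusted p = 0.0465), and its call was lost without control 2, control 3, ddp 1 or ddp 2. In sts 11 rose and 7 fell, where 15.9% of all genes were called higher and 18% lower. The median was 0.10, and without control 1, control 2, sts 1 or sts 2 the falls numbered 4. Between the vesicle groups 18 were higher in sts and 2 (FTL and TRIM16L) lower, with a median of 0.22. Over all genes 20.4% were called higher and 20.7% lower there. Without sts 2 the lower ones of the 32 numbered 4 and without sts 1 they numbered 1. Several fell in ddp and rose in sts. CES1, a carboxylesterase, was at 8.79, 7.87 and 7.31 CPM in control, 2.96, 3.35 and 5.12 CPM in ddp, and 13.6, 15.4 and 14.2 CPM in sts, falling in ddp (−1.07, adjusted p = 4.20e-05) and rising in sts (0.85, adjusted p = 8.87e-05). EPHX1, microsomal epoxide hydrolase, fell in ddp (−0.53, adjusted p = 1.28e-05) and rose in sts (0.37, adjusted p = 4.50e-04). The export pump ABCC3 fell (−0.27, adjusted p = 0.00896) and rose (0.35, adjusted p = 2.53e-04) likewise. HMOX1, haem oxygenase, went another way. It was at 91.0, 77.4 and 62.2 CPM in control, ddp and sts and fell in sts (−0.55, adjusted p = 0.0258).

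**Figure D5:**
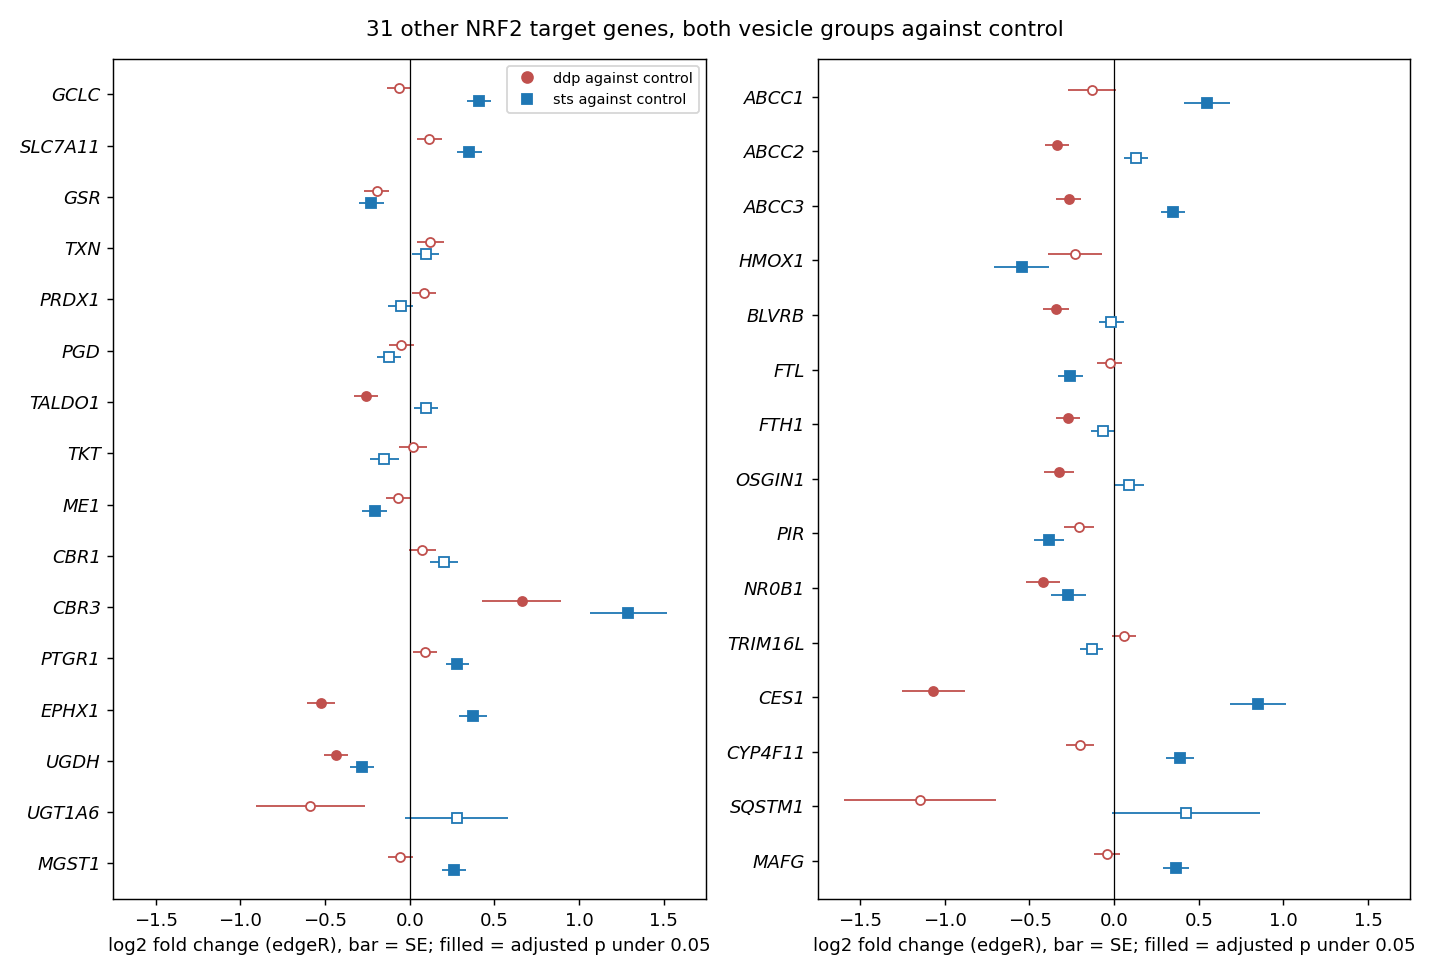
log2 fold change with SE (horizontal) of 31 of the 32 other NRF2 target genes in ddp (circles) and sts (squares) against the same control libraries; filled symbols passed an adjusted p under 0.05. For ddp 10 filled circles lie left of 0 and 1 (CBR3) right of it, while for sts 11 filled squares lie right and 7 left.

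Other groups of the pathway gave mixed counts. Over all genes tested, 7.55% were called higher and 9.02% lower in ddp, and 15.9% higher and 18% lower in sts. Of 16 tested conjugation enzymes, which attach glutathione, glucuronate or sulfate, 0 rose and 4 fell in ddp, and 7 rose and 1 fell in sts. Of 11 enzymes that make NADPH, the cofactor of the reductases above, 0 rose and 3 fell in ddp, and 1 rose and 4 fell in sts. IDH1, the cytosolic isocitrate dehydrogenase, fell in ddp (−0.30, adjusted p = 0.00177). Of 9 tested genes of haem and iron handling, 0 rose and 3 fell in ddp, and 1 rose and 4 fell in sts. Of 16 tested genes known to be high in KEAP1-mutant lung tumours and not among the 10, some of which are also in the list of 32, 0 rose and 7 fell in ddp, and 7 rose and 3 fell in sts. The counts of 0 in ddp are edgeR's: at an unadjusted p under 0.05, 1 conjugation enzyme, 0 NADPH enzymes, 0 haem and iron genes and 1 of the KEAP1-mutant list were higher, and DESeq2 gave 0 for each. CYP4F3, a leukotriene hydroxylase, was the largest fall among those outside the list of 32, from 66.0 ± 3.63 to 35.2 ± 8.28 CPM in ddp (−0.91, adjusted p = 1.37e-06), and it reached 89.6 ± 2.29 CPM in sts.

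The nearest pattern to each gene was sought by the root mean square difference of log2 CPM, each gene centred on its own mean, over the 9 libraries and 9821 genes with a mean log2 CPM of at least 3. For AKR1B10 the closest genes that are not members were TM4SF1 and TM4SF18, related membrane protein genes, at 0.0656 and 0.0742. For GPX2 they were SEMA4G and HGD (0.0776 and 0.0874), and for AKR1C1 RSRP1 and CAST (0.088 and 0.0929). ALDH3A1 had no gene as close, with TIMP4 at 0.123 and EEF1A2 at 0.135. AKR1C2 and GCLM were each other's closest members, at 0.0731, and both had SLC25A40 among their closest genes. NQO1 and AKR1C3 were each other's closest members too, at 0.0693. The closest member ranked 5 to 36 among all genes compared for AKR1B10, AKR1C2, AKR1C3, NQO1 and GCLM. It ranked 101 for TXNRD1, 105 for GPX2, 734 for AKR1C1, 1413 for SRXN1 and 1702 for ALDH3A1. The closest genes that are not members were COX19 and NFATC2IP for NQO1, and MDFIC and CHMP2B for TXNRD1. They were KHDC4 and HIBADH for AKR1C3, and NECAB3 and UST for SRXN1. The likeness is a description over libraries that share 3 groups.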

How the data were processed

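RNA of 9 A549 libraries (3 control, 3 ddp, 3 sts) was measured by sequencing, with group and replicate read from each title. The authors deposited raw read counts for each gene and FPKM values for the same rows. The submitters' processing notes name featureCounts 1.5.0-p3 of Subread, HISAT2 2.0.5, StringTie 1.3.3b, limma and hg38, without roles or order. The sources used here do not give the handling of strand or of reads that fit several genes, which bears most on AKR1C1 and AKR1C2. Coordinates are those of the deposited table, gene types are from GENCODE v29, and 61399 of 61552 Ensembl rows matched a symbol. The 705 rows without annotation, 0.313% to 0.357% of the counts, were left out.

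The test was edgeR 4.0.16's robust quasi-likelihood test (R 4.3.3) on the counts, with TMM scaling, edgeR's default filter, all 9 libraries in 1 fit and no covariate. A gene was called with a Benjamini-Hochberg adjusted p under 0.05 over 16480 genes. Every adjusted p comes from it unless another tool is named. CPM of genes is TMM-scaled, and summed CPM of marker lists is not. SE is the fold change divided by the square root of F, and 95% intervals use it with the fit's degrees of freedom. The common biological coefficient of variation was 0.0887. No libraries were duplicates: chi-square per degree of freedom between replicates was 5.11 to 7.67.

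The members and gene lists were chosen with earlier results of these data known. Named beside the 10 members were 13 chosen regulators and relatives and, per list and comparison, up to 3 called genes of largest change with a mean log2 CPM of at least 1; others are list members given as examples, and 1 gene is not reported here. SOD2 had no matching row. Alternatives were other scalings, filters and tests (DESeq2 1.42.0; limma 3.58.1 on log2 FPKM plus 1 or 0.1), a fold minimum, a replicate block, the 6 compared libraries alone, and each library left out.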

Additional observations from a re-analysis of the deposited data

How the results depend on the processing

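Of 243 recomputed counts and summed-row values 202 changed by less than 1.5-fold or kept their call, and of 510 recomputed log2 fold changes of the 10 enzymes 433 kept sign and side of the threshold. The number of the 10 enzymes lower in ddp than in control, 8 in the reported fit, was 3 with a fold minimum of 1.2, 5 with each of the 3 limma fits on FPKM, and 5 to 6 when 1 library was left out. The number higher in ddp, 0, became 1 (ALDH3A1) with no filter on low counts and with the replicate block, and was 0 to 1 when 1 library was left out. In sts against control the 2 higher became 1 and the 3 lower became 0 with the fold minimum. In sts against ddp the 8 higher became 3 with the fold minimum and 5 with limma on unfiltered FPKM.

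Of the 32 other NRF2 targets, the 1 higher in ddp became 0 with DESeq2, the fold minimum, the 3 limma fits, the 6 libraries alone and the replicate block, and was 0 to 1 when a library was left out; the 10 lower became 3 with the fold minimum and 3 with limma on unfiltered FPKM. In sts against control the 11 higher became 4 with the fold minimum, and the 7 lower became 0 with it, 2 with limma on unfiltered FPKM and 4 to 6 when a library was left out. In sts against ddp the 18 higher became 8 with the fold minimum, and the 2 lower became 0 with it, 1 with limma on unfiltered FPKM, 1 with upper-quartile scaling and 1 to 4 when a library was left out. The fold minimum asks for more than a difference from 0; for the other settings the cause was not tested.

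Signs changed only for log2 fold changes near 0 that did not pass the test. In ddp against control SRXN1 was 0.0014 with no filter and −0.10 to 0.0755 with a library left out. In sts against control AKR1C3 was 0.0134 with upper-quartile scaling and −0.0688 to 0.0155 with a library left out, and NQO2 was 0.022 and −0.0884 to 0.0779 in the same settings. TXNRD1 there was 0.0013 with median-of-ratios scaling, 0.0067 with no filter, 0.0098 in the 6 libraries alone, 0.0423 with upper-quartile scaling and −0.0476 to 0.0557 with a library left out. In sts against ddp TXN was 0.0167 with upper-quartile scaling and −0.101 to 0.0728 with a library left out.

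Same-numbered libraries did not deviate together (correlations −0.0979 to 0.0492 over 9 pairs), so the numbers are not treated as a pairing. With the replicate block the enzymes lower in ddp were 6, without NQO1 (adjusted p = 0.0797) and TXNRD1 (adjusted p = 0.0691), ALDH3A1 was called higher there (adjusted p = 0.0381), and calls over all genes went from 2732 to 2474. Over all genes, the 2732 calls in ddp became 972 with the fold minimum and 785 to 1647 with the limma fits, which tested other numbers of genes. The 5590 calls in sts became 2781 and, with limma on unfiltered FPKM, 3298, and the 6768 between the vesicle groups became 3720 and 4344. The counts of AKR1C1 to AKR1C3 as 1 row kept their calls in every alternative run on them. The fold minimum and the limma fits, which removed calls of single genes, were not run on this row.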
